A study of Mus musculus with 6 samples.

Results

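The genes described here are 34 mouse genes of glycolysis and the hypoxia response, followed through the cell types of pancreatic tumours in 6 mice. They were matched by symbol in the gene lists of all 6 libraries, without use of their measured values, and all 34 were found among 32285 features. The list itself was chosen with earlier results of these data known. Aldoa matched 2 features, of which the one with nearly all of its reads was used. All 6 mice were KPC mice whose alleles include p53LSL.R172H/+ and Pdx1-Cretg/+, a model of ductal pancreatic cancer in which Cre from the Pdx1 promoter recombines the engineered alleles, mutant p53 among them, in cells of the pancreatic lineage, while stroma and blood-derived cells keep the unrecombined alleles. The treated group was 3 mice given Trametinib at 1 mg/kg, an inhibitor of the kinases MEK1 and MEK2, with Hydroxychloroquine at 40 mg/kg, a drug that blocks autophagy at the lysosome, both by mouth. The vehicle group was 3 mice of the same genotype given vehicle. Mice entered at a tumour size of 4 to 7 mm by ultrasound, were assigned at random, and had their tumours collected after 24 h; their ages are not given in the labels. Each tumour was dissociated with enzymes, and 1 droplet single-cell RNA library was made per mouse, so that the mouse is the replicate throughout.

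Glycolysis breaks glucose down to pyruvate in the cytosol, and lactate dehydrogenase turns pyruvate into lactate, which leaves the cell through monocarboxylate carriers. When oxygen is low, prolyl hydroxylases no longer mark the HIF alpha subunits for destruction, and HIF then binds short ACGTG or GCGTG elements near the genes of glucose uptake, glycolysis, pH control, autophagy of mitochondria and blood vessel growth. Pancreatic ductal tumours are known as poorly perfused, fibrous and strongly glycolytic.

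The promoters of 5 members on which the results turn are shown with these elements in capitals, because the same element is shared by genes that went in opposite directions below. Kdm3a, Pdk1 and Ldhb were higher in tumour cells of all treated mice, Egln1 had a fold change above 0 in all 6 cell classes in which it was tested, and Ldha was lower in endothelial cells of all treated mice. Each sequence is the reference sequence of RefSeq on GRCm38.p6, 300 bases long, from 250 bases before a start of the gene to 50 after it, where the start is one that RefSeq gives for a transcript of the gene and can lie apart from the gene's outer end, 5′ to 3′ on the gene's own strand. Where a gene has several windows the first one listed is shown. The Kdm3a window is chr6:71632868-71633167 (minus strand), the Ldhb window chr6:142507908-142508207 (minus strand), the Pdk1 window chr2:71872974-71873273 (plus strand), the Egln1 window chr8:124949205-124949504 (minus strand) and the Ldha window chr7:46845554-46845853 (plus strand).
Kdm3a: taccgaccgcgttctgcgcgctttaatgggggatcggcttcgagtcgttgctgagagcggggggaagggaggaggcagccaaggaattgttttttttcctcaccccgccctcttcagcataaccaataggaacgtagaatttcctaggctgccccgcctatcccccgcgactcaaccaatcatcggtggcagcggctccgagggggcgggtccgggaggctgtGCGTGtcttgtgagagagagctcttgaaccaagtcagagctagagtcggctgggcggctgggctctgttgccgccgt
Ldhb: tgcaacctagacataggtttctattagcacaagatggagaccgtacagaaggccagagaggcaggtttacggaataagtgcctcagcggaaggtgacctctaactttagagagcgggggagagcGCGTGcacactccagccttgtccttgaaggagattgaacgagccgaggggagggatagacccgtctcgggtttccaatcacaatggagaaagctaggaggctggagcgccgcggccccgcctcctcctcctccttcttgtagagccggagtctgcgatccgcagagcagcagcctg
Pdk1: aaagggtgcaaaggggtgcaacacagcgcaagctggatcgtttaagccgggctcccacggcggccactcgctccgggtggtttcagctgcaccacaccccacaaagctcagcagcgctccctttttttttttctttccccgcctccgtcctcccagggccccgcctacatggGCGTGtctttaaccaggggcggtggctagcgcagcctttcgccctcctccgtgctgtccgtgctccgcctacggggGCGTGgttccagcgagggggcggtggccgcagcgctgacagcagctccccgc
Egln1: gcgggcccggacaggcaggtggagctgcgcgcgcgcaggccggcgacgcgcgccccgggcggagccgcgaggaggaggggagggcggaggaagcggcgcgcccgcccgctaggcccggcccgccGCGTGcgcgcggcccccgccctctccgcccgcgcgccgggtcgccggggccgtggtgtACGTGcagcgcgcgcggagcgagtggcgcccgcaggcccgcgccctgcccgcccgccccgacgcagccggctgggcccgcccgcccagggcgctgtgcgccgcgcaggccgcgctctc
Ldha: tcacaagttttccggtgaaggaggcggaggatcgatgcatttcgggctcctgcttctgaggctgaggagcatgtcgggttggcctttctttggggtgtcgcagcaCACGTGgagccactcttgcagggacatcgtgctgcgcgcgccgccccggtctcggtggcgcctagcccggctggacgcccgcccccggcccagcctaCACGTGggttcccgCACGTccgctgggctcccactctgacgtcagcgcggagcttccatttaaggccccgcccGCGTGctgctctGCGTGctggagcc
The capitals mark ACGTG or GCGTG on the printed strand, or CACGT or CACGC where the element lies on the other strand; CACGTG holds one on each strand and is also the E-box letters bound by Myc and other factors. The Kdm3a and Ldhb windows shown held 1 match each, the Pdk1 and Egln1 windows 2 each, and the Ldha window 7, of which 4 lie in its 2 CACGTG runs. Kdm3a has 2 further windows and Pdk1 has 1, all without a match, and the further window of Ldha held 2. RefSeq windows were at hand for 32 members, in 43 windows, and 35 of these windows (81.4%) held at least 1 match, which covers 30 of the 32 members. Of all 32851 windows of the same length in the mouse genome, 43.77% held one. A match is a run of letters and no measure of binding, and the other windows without one are those of Tpi1 and Gpi1, 1 of the 3 of Aldoa, and 1 each of the several of Pkm and Hk1. Ndrg1 and Epas1 are named only.

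After filters 37002 cells were kept, between 3941 and 5991 per treated mouse and between 2144 and 10304 per vehicle mouse, at median depths of 8384 to 11182 UMIs (counted molecules) per treated cell and 2995.5 to 4701 per vehicle cell. Cells were clustered without use of the labels and named from marker genes, and 7 classes held at least 20 cells in every mouse: tumour and ductal epithelial cells (called tumour cells here), endothelial cells, macrophages and monocytes, fibroblasts, neutrophils, T and NK lymphocytes, and B lymphocytes. A pair of features of the libraries bears on the results. The vehicle 1 library had the fewest cells and a barcode set apart from the others: the leading 7 bases of its barcodes occurred in other libraries for at most 25.9% of them, against at least 99.8% for the other pairs. Treated mice 1 and 2 had tumour cells unusually alike, with a robust SD (from the median absolute deviation over genes) of the log2 ratio between their sums of 0.195, against 0.631 to 1.2 for the other pairs of mice. Between 0 and 24 whole barcodes were shared by any pair of libraries. In a mix of cells of a class, a change in the share of sub-types and a change within each cell cannot be told apart from the class sum alone, and cluster values are given where they bear on a result.

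Across the 7 classes the members fell into an ordered pattern of levels that differed by role. Levels are given as CPM, the share of the UMIs of the class sum that a gene takes, scaled to a fixed total, as the median over 6 mice with the lowest and highest mouse, and the order carries no test, since the classes were formed from the same cells. Neutrophils had the highest median for 12 members, tumour cells for 9, endothelial cells for 6, fibroblasts for 4, macrophages for 2 and T and NK lymphocytes for 1. The class on top stood above all others in each of the 6 mice for 10 members and in 5 mice for 7 more. For all the other members a second class was highest in at least 1 mouse.
Among the glycolytic enzymes, tumour cells led for the middle of the pathway. Gapdh, the dehydrogenase of the middle step, had 2969 CPM (range 1768 to 3670.2) in tumour cells and a median of 2338 CPM in macrophages, and tumour cells were the highest class in 4 of 6 mice. Tpi1, the triose phosphate isomerase, had 572 CPM (range 391 to 725) in tumour cells and was highest there in 6 of 6 mice. Neutrophils led at the entry to the pathway, for Slc2a1, the main glucose transporter, with 177 CPM (range 33.8 to 346), and for Hk2, a hexokinase, with 346 CPM (range 143 to 551). Hk1, the other hexokinase of the list, had its highest level in endothelial cells of all 6 mice, with 71.1 CPM (range 67.0 to 89.1).
The lactate carriers had their highest medians in different classes. Slc16a3, the carrier known for lactate export, had 311 CPM (range 132 to 423) in neutrophils and a median of 83.4 CPM in macrophages, with neutrophils above all other classes in 6 of 6 mice. Slc16a1, the broader monocarboxylate carrier, had its highest median in tumour cells, at 23.1 CPM (range 16.9 to 56.0). Fibroblasts were close, with a median of 19.1 CPM (range 13.7 to 38.7), and tumour cells were the highest class in only 2 of 6 mice. Ldhb, the lactate dehydrogenase subunit that favours the step back to pyruvate, had, among the 7 classes, its highest level in fibroblasts in 6 of 6 mice, with 61.2 CPM (range 40.7 to 126), and its median in tumour cells was 4.09 CPM.
The HIF subunits and the genes they induce differed in the class where they were highest. Epas1, which encodes HIF-2 alpha, had 406 CPM (range 232 to 507) in endothelial cells and a median of 42.6 CPM in fibroblasts, the next of the 7 classes, and the ranges did not overlap. Pericytes and smooth muscle cells, not among the 7 because 2 vehicle mice had too few of them, had more Epas1 than endothelial cells, with 505.6 to 628 CPM in treated mice and 571 CPM in vehicle 2. Hif1a, which encodes HIF-1 alpha, was spread more evenly, with a median of 351 CPM (range 98.9 to 409.6) in T and NK lymphocytes and 307.8 CPM in endothelial cells, and these neighbours did not differ beyond their spread. Ndrg1, a stress-response gene, and Adm, the vessel-dilating peptide adrenomedullin, were highest in endothelial cells of all 6 mice, with 225 CPM (range 174 to 306) and 69.4 CPM (range 26.0 to 157). Bnip3, a receptor for autophagy of mitochondria, was highest in neutrophils of all 6 mice, with 122 CPM (range 54.0 to 386), and P4ha2, a collagen prolyl hydroxylase, in fibroblasts of all 6 mice, with 94.7 CPM (range 48.8 to 131). Car9, the carbonic anhydrase often used as a hypoxia marker, had 34.7 CPM (range 3.75 to 79.2) in tumour cells and a median of 6.23 CPM in fibroblasts, with vehicle 1 the lowest tumour.

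**Figure D1:**
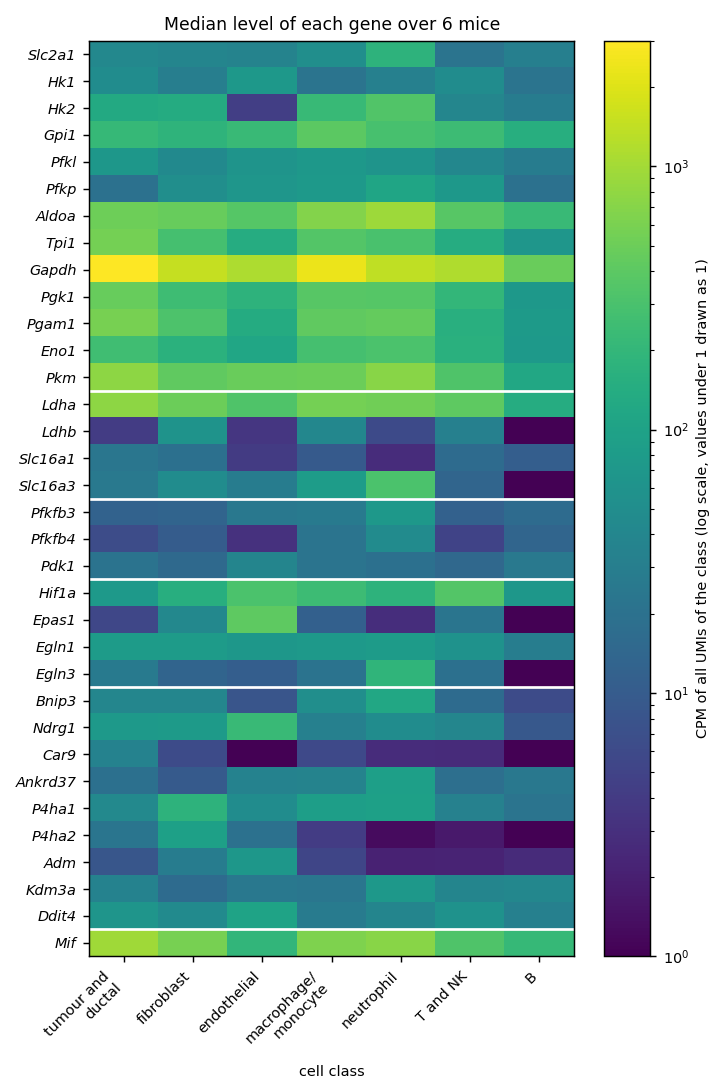
Median level of the 34 members (down) in the 7 cell classes (across), as CPM of the class sum over 6 mice, on a logarithmic colour scale on which values under 1 are drawn as 1; white lines separate the roles. Epas1 and Ndrg1 have their highest medians in endothelial cells, Slc16a3 and Bnip3 in neutrophils, and Gapdh and Aldoa are high in all 7 classes.

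Treatment was tested in each class on counts summed per mouse, with edgeR's quasi-likelihood test and p-values adjusted over all genes of the class. No member passed the threshold of 0.05 in any class, out of 191 tests of a member in a class. Of these tests, 22 had an unadjusted p under 0.05, and each class below gives the count over all its genes. The share of all genes that edgeR called was itself 0 percent in tumour cells, macrophages, fibroblasts, neutrophils and B lymphocytes, 0.0791 percent in T and NK lymphocytes and 0.898 percent in endothelial cells. DESeq2, the other count model used, called 2 members in tumour cells, 5 in endothelial cells and 1 in macrophages. Among the genes to which it gave an adjusted p, it called 2.51 percent in tumour cells, 14 percent in endothelial cells and 2.16 percent in macrophages. With these results the members are described by values, by direction, and by whether the 3 treated mice all lay on one side of the 3 vehicle mice.
For 12 of the 191 tests all treated mice lay above all vehicle mice, and for 20 all lay below. Over all genes, the share above ran from 5.23 percent in B lymphocytes to 13.6 percent in endothelial cells. The share below ran from 4.37 percent in T and NK lymphocytes to 12.6 percent in endothelial cells. Values from here on are CPM scaled by TMM, which sets the class sums to a common level, and are given for mice 1, 2 and 3 of each group in that order. Without that scaling the median of all genes was higher in treated mice by 0.19 on the log2 scale in tumour cells, 0.15 in endothelial cells and 0.14 in fibroblasts.

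**Figure D2:**
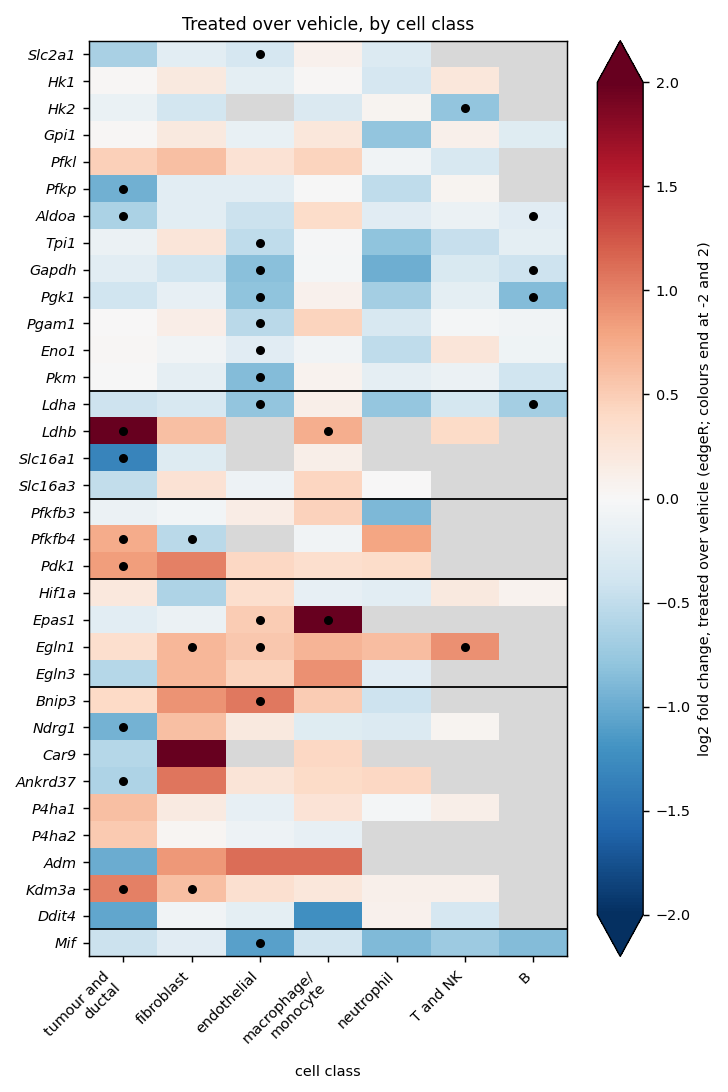
Log2 fold change of treated over vehicle for the 34 members (down) in 7 cell classes (across), with colours that end at -2 and 2; black dots mark members whose treated and vehicle mice did not overlap, and grey marks members with too few counts to test. The dots gather in the endothelial column, 9 lower and 3 higher, and in the tumour column, 5 lower and 4 higher, and the neutrophil column has none.

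In tumour cells, the members split by gene. Kdm3a was higher in treated mice at about the same level in each, Aldoa and Ndrg1 were lower, and most glycolytic enzymes overlapped between the groups. All 34 members were tested, 14 had a fold change above 0 and 20 below, 9 had an unadjusted p under 0.05, and the median was -0.13, beside -0.06 over all 15068 genes tested. Of these genes, 1675 had an unadjusted p under 0.05. Treated mice lay above vehicle mice for 4 members (10.1 percent of all genes did so) and below for 5 (9.17 percent of all genes). On CPM without TMM scaling the split was 6 above and 3 below, beside 19.6 and 3.57 percent of all genes.
Of the enzymes and the glucose transporter, 5 had a fold change above 0 and 8 below. Aldoa, the aldolase that splits the 6-carbon sugar, had 417, 409.7 and 424 CPM in treated mice, against 588, 589 and 769 CPM in vehicle mice. All treated tumours lay below all vehicle tumours, and the treated mice hardly differed among themselves (log2 fold change -0.64, SE 0.23, unadjusted p = 0.0305, adjusted p = 0.432). Slc2a1 had 33.6, 40.6 and 29.3 CPM in treated mice, against 15.7, 46.3 and 100.1 CPM in vehicle mice (log2 fold change -0.65), so the 3 treated mice fell between vehicle 1 and vehicle 2, and vehicle 3 was the highest. Gapdh had 3174, 3274 and 1603 CPM in treated mice, against 2160.1, 2426 and 4710.0 CPM in vehicle mice (log2 fold change -0.21), with treated 3 the lowest and vehicle 3 the highest of the 6. Pgk1, the kinase of the first ATP-yielding step, and Pgam1, the mutase after it, showed the same spread, with 425, 442 and 255 CPM in treated mice, against 377, 468 and 631 CPM in vehicle mice for Pgk1. Pfkp, the platelet form of phosphofructokinase, was singled out after its values were seen, with 15.6, 17.4 and 10.98 CPM in treated mice, against 26.0, 20.1 and 39.8 CPM in vehicle mice (log2 fold change -0.96, SE 0.34, adjusted p = 0.43). Its liver-form partner Pfkl had 76.9, 84.3 and 72.6 CPM in treated mice, against 43.2, 47.0 and 77.0 CPM in vehicle mice (log2 fold change 0.48), and these groups overlapped. The remaining enzymes, Hk1, Hk2, Gpi1, Tpi1, Pgam1, Eno1 and Pkm, had fold changes between -0.14 and 0.03 on the log2 scale.
The lactate genes held the most extreme fold changes in both directions. Ldhb, singled out after its values were seen, had 9.03, 5.82 and 26.2 CPM in treated mice, against 0.582, 1.68 and 0.952 CPM in vehicle mice. All treated tumours exceeded all vehicle tumours, with treated 3 the highest (log2 fold change 3.64, SE 0.74, unadjusted p = 0.00199, adjusted p = 0.428). These values rest on 374, 265 and 954 UMIs in treated mice, against 8, 124 and 61 in vehicle mice. Slc16a1, also chosen after its values were seen, had 15.01, 16.5 and 19.7 CPM in treated mice, against 58.7, 25.0 and 44.4 CPM in vehicle mice, with every treated tumour lower (log2 fold change -1.32, SE 0.35, adjusted p = 0.428). Ldha, the subunit that favours lactate, had 788, 798 and 368 CPM in treated mice, against 710.3, 564 and 1319.8 CPM in vehicle mice (log2 fold change -0.41), and the groups overlapped. Slc16a3 had a log2 fold change of -0.50, also with overlap.
After every tumour cell was thinned to 1000 UMIs, the share of cells with an Ldhb UMI was 0.932%, 0.289% and 2.54% in treated mice, against 0%, 0.0994% and 0.195% in vehicle mice. The 0 of vehicle 1 comes from 739 tumour cells and allows a share of up to 0.406%. B lymphocytes, thinned alike as a class with little Ldhb, had 0.129% in vehicle 2 and 0% elsewhere, where the small numbers of cells allow up to 0.792% in treated 3 and up to 15% in treated 2, so that the shares of treated mice 1 and 2 lay within what these zeros allow and that of treated 3 above its own. Unthinned shares were 14.3%, 8.86% and 31.3% of treated tumour cells and 0.886%, 2.56% and 1.75% of vehicle tumour cells, at median depths of 19064 to 34391 UMIs in treated mice and 11608 to 24741 in vehicle mice (1200 to 3412 in B lymphocytes). No test of these shares is given, since Ldhb was chosen for its values.
Of the 3 kinases that steer glycolysis, 2 had a fold change above 0. Pdk1, which inhibits pyruvate dehydrogenase, was chosen after its values were seen. It had 31.0, 36.0 and 23.2 CPM in treated mice, against 17.5, 14.4 and 18.7 CPM in vehicle mice (log2 fold change 0.84, SE 0.26, adjusted p = 0.428). Pfkfb4, which sets the level of the phosphofructokinase activator, likewise chosen, had 7.07, 6.77 and 8.06 CPM in treated mice, against 5.38, 3.66 and 4.04 CPM in vehicle mice (log2 fold change 0.75, SE 0.34, adjusted p = 0.462). In both, all 3 treated mice were higher. Pfkfb3, its better-known relative, had a log2 fold change of -0.12.
Among the HIF subunits and hydroxylases, no group stood apart. Hif1a had 95.3, 104 and 66.4 CPM in treated mice, against 53.0, 72.8 and 105 CPM in vehicle mice, and Egln1, the main oxygen-sensing hydroxylase, 102, 107 and 64.9 CPM in treated mice, against 44.5, 55.1 and 117 CPM in vehicle mice. For both genes all treated mice lay within the range of the vehicle mice. Epas1 was low in tumour cells, with 3.45, 1.91 and 14.9 CPM in treated mice, against 7.49, 11.3 and 4.46 CPM in vehicle mice, and Egln3, the hydroxylase that HIF itself induces, had a log2 fold change of -0.58 with overlap.
The hypoxia-induced genes went in both directions, 4 above 0 and 5 below. Kdm3a, a histone demethylase that needs oxygen (ENSMUSG00000053470, chr6:71588972-71632990, minus strand, mm10), had 42.0, 45.5 and 42.6 CPM in treated mice, against 19.3, 23.2 and 22.0 CPM in vehicle mice. The 3 treated tumours were close together and all lay above the 3 vehicle tumours, which were close together too (log2 fold change 1.01, SE 0.21, unadjusted p = 0.00207, adjusted p = 0.428). Its fold change ranged over 0.93 to 1.08 when each mouse was left out in turn. Ndrg1 had 62.6, 68.8 and 44.4 CPM in treated mice, against 70.7, 110.4 and 158 CPM in vehicle mice, with every treated mouse lower (log2 fold change -0.95, SE 0.36, unadjusted p = 0.0336, adjusted p = 0.432), though treated 2 and vehicle 1 nearly met. Ankrd37, a small protein known as a HIF target, was chosen after its values were seen and had 17.1, 16.8 and 14.0 CPM in treated mice, against 28.6, 21.8 and 23.0 CPM in vehicle mice, all treated mice lower (log2 fold change -0.61, SE 0.24, adjusted p = 0.432). Ddit4, an inhibitor of mTORC1 under stress, had 33.6, 30.7 and 64.1 CPM in treated mice, against 103, 60.3 and 100.4 CPM in vehicle mice (log2 fold change -1.04), and treated 3 overlapped vehicle 2. Car9 had 32.9, 33.8 and 18.6 CPM in treated mice, against 3.93, 80.9 and 42.2 CPM in vehicle mice (log2 fold change -0.58), and the vehicle mice alone covered a wider range than the treated mice. Bnip3, P4ha1 and P4ha2 had log2 fold changes of 0.40, 0.60 and 0.53, and Adm -0.99, all with overlap. Mif, the cytokine of the list and a known HIF target, had 888, 960.1 and 323 CPM in treated mice, against 960.3, 419.7 and 1549 CPM in vehicle mice (log2 fold change -0.43).
DESeq2 called Kdm3a (log2 fold change 1.02, adjusted p = 0.00937) and Ldhb (log2 fold change 3.64, adjusted p = 0.000162) higher in this class. Leaving out each mouse in turn gave 2.75 to 4.13 for Ldhb, 0.69 to 0.98 for Pdk1, -1.58 to -1.03 for Slc16a1, -0.72 to -0.50 for Aldoa and -1.21 to -0.63 for Ndrg1. With treated mice 1 and 2 summed as 1 sample, edgeR gave 1.01 for Kdm3a and 3.94 for Ldhb, both at adjusted p = 0.94. The lean of the enzyme genes depended on single mice and on the scaling: 10 of 13 lay above 0 without vehicle 3, 8 of 13 without treated 3, 6 of 13 with DESeq2's size factors, and 12 of 13 below 0 with treated mice 1 and 2 summed.

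**Figure D3:**
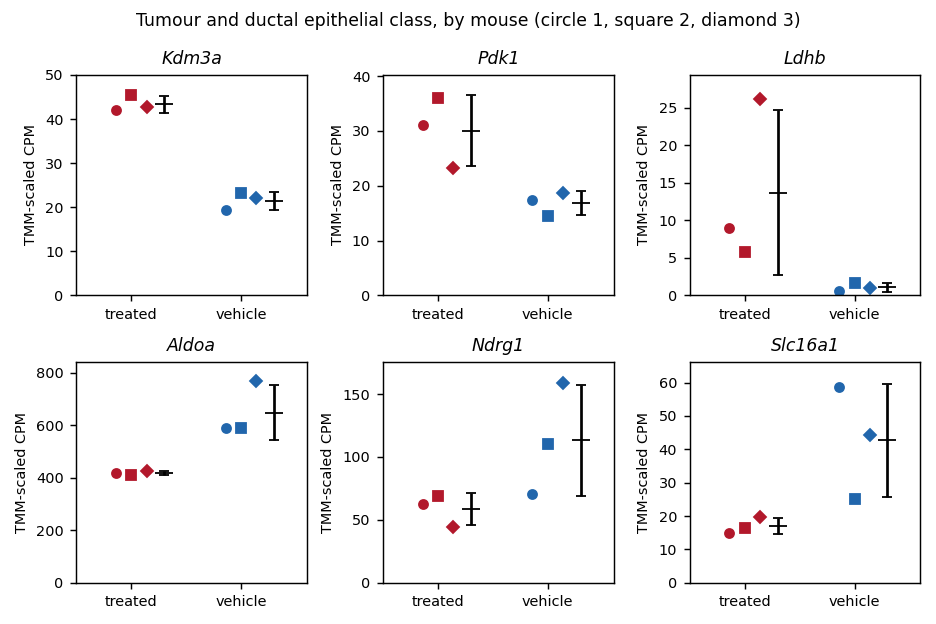
TMM-scaled CPM of 6 members in tumour cells, one point per mouse (circle 1, square 2, diamond 3) with mean ± SD, treated on the left and vehicle on the right of each panel. Treated mice lie above vehicle mice for Kdm3a, Pdk1 and Ldhb and below for Aldoa, Ndrg1 and Slc16a1, and Kdm3a has the tightest groups.

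The mice did not share one kind of tumour cell. Cluster 27 held 61.9% and 61.6% of the tumour cells of treated mice 1 and 2, cluster 22 held 52.9% of those of treated 3, cluster 14 held 93.2% of those of vehicle 1 and cluster 28 held 84.2% of those of vehicle 3. Cluster 22 had cells of both groups, and within it Kdm3a had 26.6, 27.6 and 53.3 CPM in treated mice (without TMM scaling), against 24.1 and 23.0 CPM in vehicle mice 2 and 3. Ldhb in the same cluster had 32.8, 36.8 and 42.2 CPM in treated mice, against 4.39 and 21.2 CPM in vehicle mice 2 and 3. On this scale treated values lay above vehicle values in this shared cluster for both genes. For Kdm3a the margin of treated mice 1 and 2 was only a few CPM, and it may not hold after TMM scaling. That scaling divides the tumour sums of treated mice 1 and 2 by 1.12, and those of vehicle mice 2 and 3 by 0.98 and 0.77. Cluster 22 held 12.05% of the tumour cells of treated 1 and 4.34% of those of vehicle 3 (114 cells). In cluster 27, the one that held most cells of treated mice 1 and 2, Ldhb was 4.02 and 4.28 CPM and Kdm3a 52.6 and 53.8 CPM. Which tumour clone or state a mouse carried cannot be told apart from treatment for the clusters held by 1 group.

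In endothelial cells, the lining of blood vessels, 11 of the 12 glucose and glycolytic genes tested had a fold change below 0, 7 of them with every treated mouse lower, and the 4 HIF subunits and hydroxylases had fold changes above 0, though no member passed edgeR's threshold. Gapdh, Pkm, Ldha, Pgk1, Pgam1 and Mif lay below every vehicle mouse in every treated mouse. Of 29 members tested, 12 had a fold change above 0 and 17 below, 8 had an unadjusted p under 0.05, and the median was -0.15, beside 0.02 over all 9906 genes tested. The unadjusted p was under 0.05 for 1866 of these genes. All treated mice lay below all vehicle mice for 9 members (12.6 percent of all genes did so) and above for 3 (13.6 percent of all genes). On CPM without TMM scaling 7 lay below and 4 above, beside 9.38 and 17.7 percent of all genes, and Pgam1 and Eno1 then overlapped. Hk2, Ldhb, Slc16a1, Pfkfb4 and Car9 had too few counts to test.
Gapdh (ENSMUSG00000057666, chr6:125161715-125166467, minus strand, mm10) had 862, 844 and 826 CPM in treated mice, against 1630.0, 1289 and 1598 CPM in vehicle mice. The 3 treated mice were close to one another and all lay below the lowest vehicle mouse (log2 fold change -0.83, SE 0.22, unadjusted p = 0.00349, adjusted p = 0.102). Pkm, the pyruvate kinase of the last step, had 322, 369.8 and 446 CPM in treated mice, against 851, 504 and 748 CPM in vehicle mice (log2 fold change -0.87, SE 0.26, unadjusted p = 0.00658, adjusted p = 0.124). Pgk1 had 116, 155 and 153 CPM in treated mice, against 267, 191 and 293 CPM in vehicle mice (log2 fold change -0.81, SE 0.23, unadjusted p = 0.00552, adjusted p = 0.118). In all of these vehicle 2 was the vehicle mouse nearest the treated ones. Pgam1 had 107, 132 and 141 CPM in treated mice, against 144, 173 and 219 CPM in vehicle mice, with treated 3 and vehicle 1 close (log2 fold change -0.54, SE 0.22, unadjusted p = 0.0319, adjusted p = 0.219). Tpi1, Eno1, the enolase, and Slc2a1 were also lower in every treated mouse, by smaller steps, with log2 fold changes of -0.50, -0.23 and -0.33. For Tpi1 the highest treated mouse, 139 CPM, and the lowest vehicle mouse, 140.2 CPM, were almost equal. Hk1, Gpi1, Pfkp and Aldoa ran from -0.43 to -0.15 with overlap, and the one enzyme gene above 0 was Pfkl, at 0.28.
Ldha, next in the pathway, had 252, 276 and 266 CPM in treated mice, against 469, 376 and 538 CPM in vehicle mice (log2 fold change -0.80, SE 0.22, unadjusted p = 0.00421, adjusted p = 0.106). Mif (ENSMUSG00000033307, chr10:75859353-75860240, minus strand, mm10) had 145, 171 and 173 CPM in treated mice, against 397, 209 and 450.4 CPM in vehicle mice, the smallest adjusted p of any member in this class (log2 fold change -1.09, SE 0.29, unadjusted p = 0.00302, adjusted p = 0.0971). All treated mice were lower for both genes, and vehicle 1 and vehicle 3 carried the highest values. Reads of Gapdh, Aldoa, Eno1, Pkm, Pgk1, Ldha and Mif can be shared with the processed copies these genes have elsewhere in the genome, so their levels hold that uncertainty in both groups.
Epas1 (ENSMUSG00000024140, chr17:86753700-86833410, plus strand, mm10) and Egln1, of the HIF arm, and the induced genes Bnip3 and Adm were singled out after their values were seen. Epas1 had 422, 417 and 494 CPM in treated mice, against 310.1, 380.4 and 248 CPM in vehicle mice, all treated mice higher (log2 fold change 0.50, SE 0.23, adjusted p = 0.278). Egln1 had 88.0, 71.7 and 98.3 CPM in treated mice, against 21.6, 60.5 and 70.7 CPM in vehicle mice, with treated 2 and vehicle 3 nearly equal (log2 fold change 0.53, SE 0.26, adjusted p = 0.308). Hif1a had 289, 308 and 439 CPM in treated mice, against 129.8, 253 and 394 CPM in vehicle mice (log2 fold change 0.34), and vehicle 3 reached the treated range. Egln3 had a log2 fold change of 0.44, and the kinases Pdk1 and Pfkfb3 of 0.42 and 0.15, with overlap.
Among the hypoxia-induced genes, 5 of 8 had a fold change above 0. Bnip3 had 10.6, 14.1 and 9.73 CPM in treated mice, against 7.21, 4.72 and 6.12 CPM in vehicle mice, low values at which every treated mouse was higher (log2 fold change 1.05, SE 0.37, adjusted p = 0.171). Adm had 66.9, 155 and 106 CPM in treated mice, against 28.8, 67.2 and 38.4 CPM in vehicle mice, and only treated 1 and vehicle 2 overlapped (log2 fold change 1.12, SE 0.36, adjusted p = 0.148). Ndrg1, Ankrd37 and Kdm3a lay at 0.19, 0.25 and 0.32 (DESeq2 put Ankrd37 at -0.64), and P4ha1, P4ha2 and Ddit4 between -0.20 and -0.10.

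**Figure D4:**
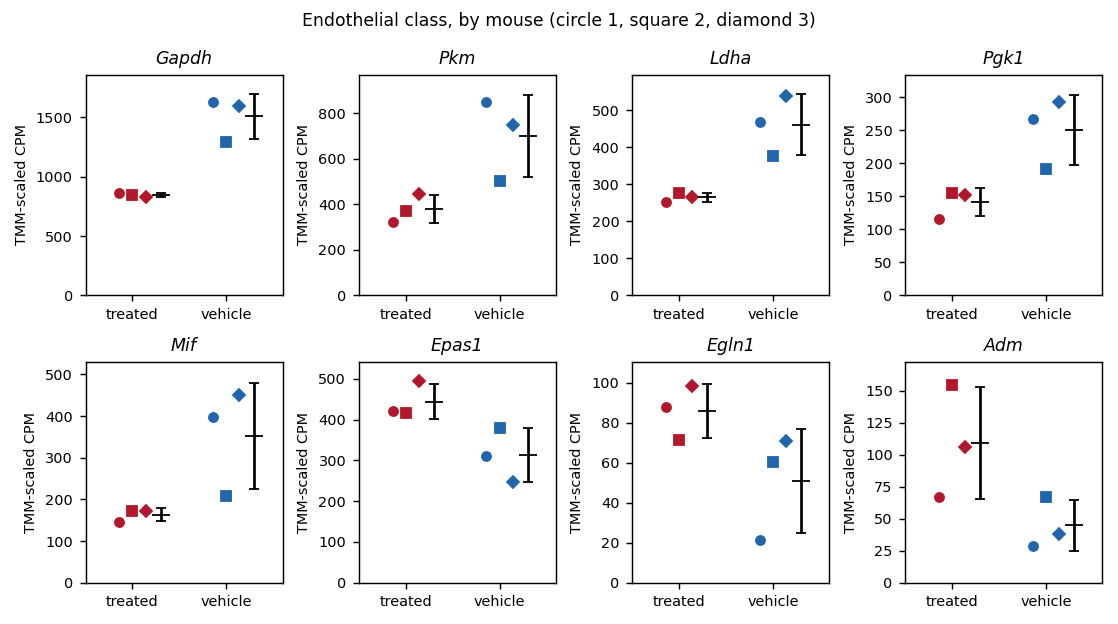
TMM-scaled CPM of 8 members in endothelial cells, one point per mouse (circle 1, square 2, diamond 3) with mean ± SD, treated on the left and vehicle on the right. Gapdh, Pkm, Ldha, Pgk1 and Mif are lower in all 3 treated mice, Epas1 and Egln1 are higher in all 3, and Adm overlaps at treated 1 and vehicle 2.

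DESeq2 called Gapdh, Pkm, Ldha, Pgk1 and Mif lower in this class, with adjusted p between 0.00726 and 0.0445. Leaving out each mouse in turn gave fold changes of -0.93 to -0.76 for Gapdh, 0.35 to 0.70 for Epas1 and -1.39 to -0.80 for Mif, and edgeR called Mif when vehicle 2 was left out (log2 fold change -1.39, adjusted p = 0.027). Between 10 and 11 of the 12 enzyme genes stayed below 0, and 4 of 4 genes of the HIF arm above 0, in each of these 6 fits.
The endothelial class was checked against its own and other markers, and all marker sums here and in other classes are CPM without TMM scaling. All 10 endothelial markers reached at least 50 CPM in all mice, with sums of 8805 to 9995 CPM in treated mice, against 8076 to 10372 CPM in vehicle mice. The 12 tumour cell markers were all detected and summed to 68.1 to 123 CPM in treated mice, against 130 to 557 CPM in vehicle mice, and the 10 neutrophil markers to 42.3 to 55.0 CPM in treated mice, against 33.0 to 584 CPM in vehicle mice. Median Gapdh over the 6 mice was 2969 CPM in tumour cells and 1415 CPM in neutrophils, above the 1110.5 CPM of endothelial cells (CPM of all UMIs of the class), and the part of their RNA in the lower enzyme values was not tested. Vehicle 1 held only 46 endothelial cells.
Within cluster 18 alone, the larger of the vessel clusters, led by Fabp4 and Plvap, the same order held without TMM scaling. Gapdh had 922, 845 and 876 CPM in treated mice, against 1466, 1385 and 1535 CPM in vehicle mice. Epas1 had 579, 555 and 543 CPM in treated mice, against 279, 476 and 242 CPM in vehicle mice, and the groups did not overlap for either gene. Adm differed, with 25.0, 25.9 and 35.3 CPM in treated mice, against 26.0, 20.7 and 23.9 CPM in vehicle mice, which overlap. Adm was higher in cluster 31, led by the lymphatic genes Ccl21a, Mmrn1 and Prox1, which made up 15%, 27.8% and 6.29% of endothelial cells in treated mice, against 0%, 20.9% and 8.19% in vehicle mice. Inside it Adm had 183 and 434 CPM in treated mice 1 and 2, and 219 CPM in vehicle 2.

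In macrophages and monocytes, Epas1 and Ldhb were higher in every treated mouse and no member was lower in every treated mouse. All 34 members were tested, 23 had a fold change above 0 and 11 below, 2 had an unadjusted p under 0.05, and the median was 0.17, beside 0.01 over all 11549 genes tested. Of these genes, 1210 had an unadjusted p under 0.05. Members lay above in all treated mice for 2 of 34 (8.78 percent of all genes did so) and below for 0 (8.82 percent of all genes).
The glucose and glycolytic genes lay close to 0, from -0.30 for Hk2 to 0.45 for Pfkl. All 4 lactate genes lay above 0, led by Ldhb, with 45.9, 44.8 and 57.4 CPM in treated mice, against 25.0, 27.8 and 36.4 CPM in vehicle mice. The lowest treated mouse was above the highest vehicle mouse (log2 fold change 0.72, SE 0.22, unadjusted p = 0.0106, adjusted p = 0.291). Ldha, Slc16a1 and Slc16a3 lay at 0.11, 0.12 and 0.42, and the kinases Pfkfb3, Pfkfb4 and Pdk1 at 0.46, -0.06 and 0.33.
Epas1, chosen after its values were seen, was low but well separated, with 21.4, 15.6 and 38.1 CPM in treated mice, against 1.96, 6.88 and 6.01 CPM in vehicle mice. The lowest treated mouse had more than 2 times the highest vehicle mouse (log2 fold change 2.22, SE 0.44, unadjusted p = 0.00111, adjusted p = 0.134), and leaving out each mouse in turn gave 1.76 to 2.48. DESeq2 called it (log2 fold change 2.26, adjusted p = 0.000632), the only member it called in this class. Egln1 had 77.0, 80.3 and 97.9 CPM in treated mice, against 30.4, 46.3 and 80.1 CPM in vehicle mice (log2 fold change 0.69), with vehicle 3 inside the treated range. Egln3 and Hif1a lay at 0.91 and -0.16. After thinning to 1000 UMIs, 1.03%, 1.36% and 3.53% of treated macrophages had an Epas1 UMI, against 0.474%, 0.868% and 0.421% of vehicle macrophages. B lymphocytes thinned alike had 0.387% in vehicle 2 and 0% elsewhere, which allows up to 0.792% in treated 3 and up to 15% in treated 2. The unthinned shares in macrophages were 9.96%, 5.4% and 29.9% in treated mice, against 0.629%, 3.58% and 2.13% in vehicle mice. No test of these shares is given, since Epas1 was chosen for its values.
The mice differed in the macrophage clusters they held, and the part of this difference in the Epas1 sums was not tested. Cluster 6, led by Chil3, Marco, Lyz2 and Arg1, held 15.6%, 6.05% and 71.3% of macrophages in treated mice, against 2.05% and 6.13% in vehicle mice 2 and 3, and under 20 cells in vehicle 1. Inside it Epas1 had 47.1, 49.0 and 45.2 CPM in treated mice, against 57.2 and 29.4 CPM in vehicle mice 2 and 3, and the groups overlapped. Vehicle 2 had 32 cells there. Over all macrophages, the 10 endothelial markers, of the class with the most Epas1 among the 7, summed to 46.3 to 53.2 CPM in treated mice, against 44.7 to 70.5 CPM in vehicle mice, with overlap, and the 12 tumour cell markers to 66.0 to 104 CPM in treated mice, against 133 to 558 CPM in vehicle mice, without. Cluster 1 held 37.9%, 53.4% and 1.38% of macrophages in treated mice, against 7.13%, 2.497% and 1.54% in vehicle mice, whereas cluster 2 held 11.2%, 9.40% and 9.98% in treated mice, against 26.0%, 52.3% and 63.3% in vehicle mice.

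**Figure D5:**
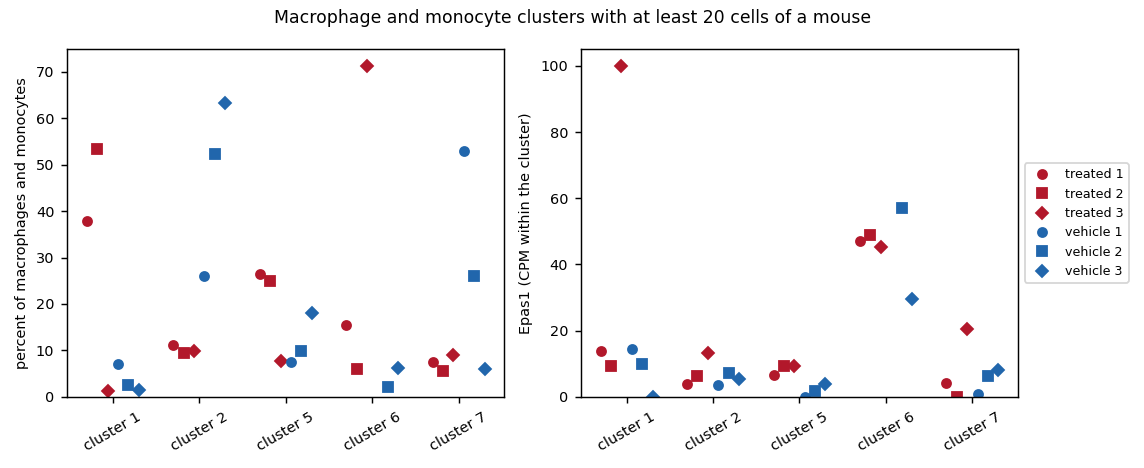
Left, percent of each mouse's macrophages in clusters 1, 2, 5, 6 and 7, treated mice first; right, Epas1 CPM inside each cluster, shown where a mouse had at least 20 cells there. Treated 3 has 71.3% of its macrophages in cluster 6, and inside that cluster Epas1 is 45.2 to 49.0 CPM in treated mice, against 57.2 CPM in vehicle 2 (32 cells) and 29.44 CPM in vehicle 3.

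Of the hypoxia-induced genes, 6 of 9 lay above 0. Adm had a log2 fold change of 1.12 and Bnip3 of 0.51, and Ddit4 of -1.22, all with overlapping groups, and Ndrg1, Car9, Ankrd37, P4ha1, P4ha2 and Kdm3a ran from -0.24 to 0.42. Mif had 664, 641 and 533 CPM in treated mice, against 1145, 343 and 905 CPM in vehicle mice, also overlapping.

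In fibroblasts, the matrix-making cells of the tumour, 8 of the 9 hypoxia-induced genes had a fold change above 0, and the glucose and glycolytic genes lay on both sides, 5 above 0 and 8 below, with no test of the difference between these groups of genes. Egln1 and Kdm3a were higher in every treated mouse and Pfkfb4 was lower in every treated mouse. All 34 members were tested, 18 had a fold change above 0 and 16 below, 1 had an unadjusted p under 0.05, and the median was 0.08, beside 0.00 over all 12461 genes tested. The unadjusted p was under 0.05 for 1926 of these genes. All treated mice lay above all vehicle mice for 2 members (12.1 percent of all genes did so) and below for 1 (11.1 percent of all genes). On CPM without TMM scaling 4 lay above and 0 below, beside 18.9 and 5.89 percent of all genes.
Egln1 (ENSMUSG00000031987, chr8:124908587-124949324, minus strand, mm10) had 81.5, 96.1 and 111 CPM in treated mice, against 37.1, 62.0 and 80.2 CPM in vehicle mice. Treated 1 and vehicle 3 nearly met (log2 fold change 0.66, SE 0.28, unadjusted p = 0.0526, adjusted p = 0.327). Kdm3a, chosen after its values were seen, had 19.2, 19.9 and 17.2 CPM in treated mice, against 12.4, 9.78 and 15.01 CPM in vehicle mice (log2 fold change 0.61, SE 0.22, unadjusted p = 0.0275, adjusted p = 0.281). Pfkfb4, likewise chosen, had 8.29, 9.71 and 9.88 CPM in treated mice, against 11.3, 11.1 and 17.5 CPM in vehicle mice (log2 fold change -0.54, SE 0.24, adjusted p = 0.342), low levels with every treated mouse lower.
Among the hypoxia-induced genes above 0 were Car9, Ankrd37, Bnip3 and Ndrg1, at 2.29, 1.07, 0.89 and 0.60. Bnip3 had 39.0, 49.3 and 83.4 CPM in treated mice, against 40.5, 15.5 and 40.0 CPM in vehicle mice, and Car9 6.17, 5.68 and 47.7 CPM in treated mice, against 13.5, 2.74 and 2.60 CPM in vehicle mice. Treated 3 was the highest mouse for both and the groups overlapped. The count of hypoxia-induced genes above 0 ranged from 6 to 9 when mice were left out in turn, and was 6 without vehicle 2. Pdk1 had 14.99, 22.3 and 31.0 CPM in treated mice, against 16.9, 5.80 and 14.3 CPM in vehicle mice (log2 fold change 1.02), again with treated 3 the highest. Hif1a had 114, 139 and 160.0 CPM in treated mice, against 59.7, 158 and 407 CPM in vehicle mice (log2 fold change -0.61), and vehicle 3 stood far above the rest.
Ldha and Ldhb lay on opposite sides, at -0.32 and 0.60, Slc16a1 and Slc16a3 at -0.26 and 0.29, Egln3 and Epas1 at 0.67 and -0.12, Mif at -0.23, and the enzymes ran from -0.40 for Gapdh to 0.60 for Pfkl, all with overlapping groups. Markers of other cells differed between the groups in this class. The 10 pericyte and smooth muscle markers summed to 2695 to 4039.7 CPM in treated mice, against 5194 to 6416 CPM in vehicle mice, the 9 mesothelial markers to 177 to 329 CPM in treated mice, against 123 to 142 CPM in vehicle mice and the 10 neutrophil markers to 73.1 to 152 CPM in treated mice, against 283 to 3166 CPM in vehicle mice. The 10 markers of conventional dendritic cells summed to 92.8 to 103 CPM in treated mice, against 130.1 to 205 CPM in vehicle mice, and the 8 of plasma cells to 235 to 300.4 CPM in treated mice, against 407 to 501 CPM in vehicle mice. None of these ranges overlapped between the groups, nor did that of the 10 fibroblast markers, with 35220.4 to 38949 CPM in treated mice, against 30871 to 34913 CPM in vehicle mice, and their part in the member values was not tested. The median over the members moved with single mice, to -0.08 without treated 3 or vehicle 2 and to 0.34 without vehicle 3.

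Neutrophils had the highest levels of many members and the widest spread among mice, and no member separated the groups on TMM-scaled CPM. Of 28 members tested, 8 had a fold change above 0 and 20 below, 0 had an unadjusted p under 0.05, and the median was -0.25, beside -0.07 over all 7668 genes tested. Of these genes, 419 had an unadjusted p under 0.05. All treated mice above all vehicle mice held for 0 members (5.27 percent of all genes) and all below for 0 (5.75 percent of all genes). On CPM without TMM scaling 1 member lay above and 0 below, beside 5.74 and 3.05 percent of all genes. The 1 member was Pfkfb4, with 55.3, 74.0 and 94.0 CPM in treated mice, against 35.6, 39.3 and 35.4 CPM in vehicle mice. Ldhb, Slc16a1, Epas1, Car9, P4ha2 and Adm had too few counts to test.
Of the 13 glucose and glycolytic genes, 12 lay below 0, and that lean rested on vehicle 3: without it 6 lay below 0 and 7 above, and the median over all members was 0.45. Gapdh had 1061, 976 and 1717 CPM in treated mice, against 2933, 631 and 3792 CPM in vehicle mice, so that vehicle 1 and vehicle 3 were the highest and vehicle 2 the lowest of the 6. Slc2a1 had 124, 157 and 205 CPM in treated mice, against 50.1, 138 and 400.2 CPM in vehicle mice and Bnip3 88.9, 132 and 212 CPM in treated mice, against 79.9, 52.4 and 446 CPM in vehicle mice, with vehicle 3 the highest of all mice for both. The fold changes of the kinases spread from -0.89 for Pfkfb3 to 0.78 for Pfkfb4, and Mif had -0.89. The vehicle mice held different neutrophils. Cluster 11 held 79.7% of those of vehicle 3, with Gapdh at 3525 and Bnip3 at 463 CPM, whereas cluster 10 held 93.5%, 90.4% and 76.1% of neutrophils in treated mice, against 92.6% in vehicle 2. Vehicle 1 had 70.1% of its neutrophils in cluster 8 and 18.9% in cluster 9, which has genes of immature granulocytes, Camp, Ngp and Elane. The 10 neutrophil markers summed to 32712 to 126920 CPM in treated mice, against 17350 to 278675 CPM in vehicle mice. The 12 macrophage and monocyte markers summed to 1575 to 3303 CPM in treated mice, against 796 to 7349 CPM in vehicle mice. The part of these differences in the member levels was not tested.

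T and NK lymphocytes had 21 members tested, 10 above 0 and 11 below, 2 with an unadjusted p under 0.05, and a median of -0.04, beside 0.01 over all 5057 genes tested. The unadjusted p was under 0.05 for 196 of these genes. All treated mice were above all vehicle mice for 1 member (6.37 percent of all genes) and below for 1 (4.37 percent of all genes). Egln1 had 70.8, 102 and 83.2 CPM in treated mice, against 0, 50.5 and 49.9 CPM in vehicle mice, the 0 being a sum of 42 cells that allows up to 50.7 CPM (3 UMIs, counting error only), above the values of vehicle mice 2 and 3 and below those of treated mice (log2 fold change 0.92, SE 0.37, unadjusted p = 0.0254, adjusted p = 0.999). Hk2, the hexokinase that activated lymphocytes raise, had 22.7, 34.9 and 39.1 CPM in treated mice, against 50.7, 50.5 and 72.1 CPM in vehicle mice, of which the value of vehicle 1 is 3 UMIs (log2 fold change -0.79, SE 0.34, unadjusted p = 0.0321, adjusted p = 0.999). Treated mice were higher for Egln1 and lower for Hk2, both without overlap. The 10 neutrophil markers summed in this class to 49.8 to 126 CPM in treated mice, against 103 to 7689 CPM in vehicle mice. The 12 macrophage and monocyte markers summed to 286 to 981 CPM in treated mice, against 330 to 427 CPM in vehicle mice. Median Hk2 was 346 CPM in neutrophils, 219 CPM in macrophages and 39.9 CPM in this class (CPM of all UMIs of the class). The part of such RNA in the Hk2 values was not tested. Mif had 297, 354 and 356 CPM in treated mice, against 963, 293 and 510.2 CPM in vehicle mice, and overlapped at vehicle 2. The 18 other members tested ran from -0.46 for Tpi1 to 0.39 for Ldhb.
B lymphocytes had 11 members tested, 1 above 0 and 10 below, 0 with an unadjusted p under 0.05, and a median of -0.24, beside -0.01 over all 1930 genes tested. Of these genes, 54 had an unadjusted p under 0.05. All treated mice were below all vehicle mice for 4 members (5.44 percent of all genes) and above for 0 (5.23 percent of all genes). On CPM without TMM scaling 3 lay below and 0 above, beside 98 and 82 of all 1930 genes. Aldoa then overlapped, with 225.0 CPM in treated 1 and 224.0 CPM in vehicle 3. Pgk1 had 62.0, 78.6 and 70.0 CPM in treated mice, against 273, 112 and 85.8 CPM in vehicle mice (log2 fold change -0.86, SE 0.43, adjusted p = 0.9996). Ldha had 86.8, 141 and 141 CPM in treated mice, against 273, 176 and 207 CPM in vehicle mice (log2 fold change -0.68, SE 0.33, adjusted p = 0.9996). Every treated mouse was lower, as for Gapdh, with 521, 456 and 449 CPM in treated mice, against 682, 539.8 and 686 CPM in vehicle mice (log2 fold change -0.41, SE 0.31, adjusted p = 0.9996), and Aldoa, with 248, 251 and 222 CPM in treated mice, against 351, 254 and 257 CPM in vehicle mice (log2 fold change -0.22, SE 0.31, adjusted p = 0.9996). Treated mice 1 and 2 gave 25 and 20 B lymphocytes and vehicle 1 gave 46, so these are shallow sums, and the 11 members that passed the count filter are the abundant ones. The 12 tumour cell markers summed to 86.8 to 311 CPM in treated mice, against 273 to 1339 CPM in vehicle mice. The 10 neutrophil markers summed to 0 to 79.7 CPM in treated mice, against 33.9 to 838 CPM in vehicle mice. Both ranges overlapped. Median Gapdh was 2969 CPM in tumour cells, 1415 CPM in neutrophils and 482 CPM in B lymphocytes (CPM of all UMIs of the class). The part of such RNA in the lower values was not tested.

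Seen gene by gene across classes that share the same 6 mice, a few members kept one direction. Egln1 had a fold change above 0 in 6 of the 6 classes in which it was tested, and in all 6 again whichever mouse was left out. Kdm3a was above 0 in 6 of 6 classes, but in 4 of 6 without treated 3 or without vehicle 1. Pdk1 was above 0 in 5 of 5 classes and Ldhb in 4 of 4, one fewer without vehicle 2 for Pdk1 and without vehicle 3 for Ldhb. On the lower side, Gapdh was below 0 in 7 of 7 classes and Mif in 7 of 7. Gapdh was below 0 in 5 classes without vehicle 1 and Mif in 6 without vehicle 1 or vehicle 3. The classes of a mouse share its tumour and its library, so these counts are no independent repeats.

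Whether the response in tumour cells differed from that in another class was tested gene by gene, as the class by treatment term with the mouse as a block. No member passed in any of the 6 comparisons (edgeR). An unadjusted p under 0.05 was found for 3 members against endothelial cells, 9 against macrophages, 8 against fibroblasts, 2 against neutrophils, 3 against T and NK lymphocytes and 2 against B lymphocytes. The share of all genes under that limit is not at hand for these comparisons, so the counts are no result about the members. Of all genes, 0.25 percent were called against T and NK lymphocytes and 0.239 percent against B lymphocytes, and 0 percent in the other 4 comparisons. Ldhb had the smallest adjusted p in all 6, with tumour minus other differences on the log2 scale of 2.71 (SE 0.55, adjusted p = 0.237) against macrophages and 3.46 (SE 0.82, adjusted p = 0.444) against endothelial cells. Adm had a difference of -1.93 (SE 0.73, adjusted p = 0.371) against macrophages and -1.71 (SE 0.37, adjusted p = 0.522) against fibroblasts, and Epas1 of -2.83 (SE 0.65, adjusted p = 0.25) against macrophages. So Adm was below 0 in tumour cells, at -0.99, and above 0 in macrophages, at 1.12, and the difference did not pass the threshold after adjustment.

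The other genes of the same pathways were followed in 4 lists of 60 genes in all, none of them members. In the 7 classes, 0 of 42 tests among other glycolytic enzymes and carriers passed, 0 of 50 among regulators at the branch points, 0 of 110 among other genes of the hypoxia response and 0 of 51 among other parts of the HIF pathway (edgeR). Fold changes above 0 numbered 19, 21, 60 and 24 in that order. In tumour cells Bsg averaged 737 ± 25.6 CPM in treated mice and 632 ± 197 CPM in vehicle mice (SD, n = 3 each, log2 fold change 0.22, adjusted p = 0.778), where Bsg is the chaperone that brings the lactate carriers to the membrane. There Elob averaged 487 ± 35.5 CPM in treated mice and 938 ± 211 CPM in vehicle mice (SD, n = 3 each, log2 fold change -0.94, adjusted p = 0.428), where Elob is a partner of the VHL ubiquitin ligase that removes HIF. In endothelial cells Elob averaged 360.1 ± 47.0 CPM in treated mice and 587 ± 151 CPM in vehicle mice (SD, n = 3 each, log2 fold change -0.69, adjusted p = 0.183), and its ligase partner Rbx1 averaged 236 ± 27.0 CPM in treated mice and 369 ± 59.2 CPM in vehicle mice (SD, n = 3 each, log2 fold change -0.62, adjusted p = 0.165). Rbx1 lay above 0 in tumour cells, unlike Elob, with 365 ± 114 CPM in treated mice and 314 ± 72.4 CPM in vehicle mice (SD, n = 3 each, log2 fold change 0.22, adjusted p = 0.812). Among other genes of the hypoxia response, 16 of 20 tested lay above 0 in macrophages, 15 of 22 in fibroblasts and 9 of 22 in tumour cells. The counts were 8 of 19 in endothelial cells, 6 of 15 in neutrophils, 4 of 9 in T and NK lymphocytes and 2 of 3 in B lymphocytes. Over all genes tested, the share below 0 ran from 47.9 percent in endothelial cells to 54.1 percent in tumour cells, and these counts were not tested. In fibroblasts Lox averaged 476 ± 41.1 CPM in treated mice and 718 ± 285 CPM in vehicle mice (SD, n = 3 each, log2 fold change -0.59, adjusted p = 0.393), where Lox crosslinks collagen. None of these adjusted p-values passed 0.05.

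Within classes, small groups of cells carried many members at once. These sub-clusters were formed on gene expression that includes the members, so their levels are a description. In fibroblasts a sub-cluster of 38 cells, led by Col1a1, Cryab, Sparc, Dcn and Ndufa4l2, was the highest of 25 sub-clusters for 27 of the 34 members. Slc2a1 had 334 CPM there and 33.6 CPM in the other cells of the class, Ldha 1716 CPM there and 469 CPM in the other cells of the class, Bnip3 385 CPM there and 36.8 CPM in the other cells of the class, Ndrg1 532 CPM there and 77.6 CPM in the other cells of the class and Car9 194 CPM there and 12.2 CPM in the other cells of the class (CPM without TMM scaling). Its cells came from treated mice as 3, 6 and 13, and from vehicle mice as 0, 2 and 14. In macrophages a sub-cluster of 351 cells was highest for 17 members, with Bnip3 at 318 CPM there and 59.3 CPM in the other cells of the class, and 320 of its cells came from treated 3. In neutrophils a sub-cluster of 556 cells was highest for 16 members, with Ldha at 2083 CPM there and 619.5 CPM in the other cells of the class, and 497 of its cells came from vehicle 3, at a median depth of 931.5 UMIs. In tumour cells a sub-cluster of 191 cells was highest for 14 members, with Pgk1 at 1502 CPM there and 424 CPM in the other cells of the class, and 83 and 103 of its cells came from treated mice 1 and 2.
Tumour cells with a Car9 UMI were set against those without one in each mouse, Car9 being a common marker of hypoxic cells. The ratio of CPM with over without Car9, as the median over 6 mice, was 2.21 (range 1.67 to 4.19) for Ankrd37, 2.01 (range 1.69 to 3.48) for Bnip3, 1.93 (range 1.39 to 5.91) for Egln3 and 2.24 (range 1.22 to 4.52) for Adm, and was above 1 in 6 of 6 mice for each. Among the glycolytic genes it was 2.06 (range 1.27 to 2.98) for Pfkp, 1.59 (range 1.14 to 2.34) for Pgk1, 1.47 (range 1.20 to 2.08) for Slc2a1 and 1.34 (range 1.10 to 1.54) for Ldha, also above 1 in 6 of 6 mice. Of the 33 members set against Car9, 17 were above 1 in 6 of 6 mice and 9 in 5. The share of all genes above 1 is not at hand, so these counts are no result about the members. Ndrg1, P4ha2 and Kdm3a were above 1 in 4 mice, Ldhb and Slc16a1 in 3, and Pfkfb4 and Hif1a in 2, with 0.787 (range 0.593 to 1.72) for Pfkfb4 and 0.946 (range 0.839 to 1.23) for Hif1a. Vehicle 1 had 38 cells with a Car9 UMI, the fewest. Cells with a Car9 UMI were deeper, with median depths of 29996.5 to 61218 UMIs in treated mice and 23099 to 34120 in vehicle mice, against 15583.5 to 24317 in treated mice and 9161 to 17962.5 in vehicle mice for cells without one, and the part of depth in these ratios was not tested.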

How the data were processed

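Tumours of 6 KPC mice, 3 treated and 3 vehicle, were profiled as 1 droplet library each. The authors deposited raw UMI counts per gene and barcode, made with Cell Ranger 5.0.1 on mm10 per the submitters' processing notes. The gene annotation behind the counts is not given in the sources at hand, and coordinates were taken by gene identifier from GENCODE M21. Of 44819 barcodes, those with at least 500 UMIs, 250 genes and at most 20% mitochondrial UMIs were kept. Scrublet's own threshold called at most 0.97% of a library, so the highest-scoring 0.8% per 1000 barcodes were left out as doublets, 2926 in all. Scanpy 1.11.5 (2000 variable genes, 30 components, 15 neighbours, Leiden resolution 1.0) gave 34 clusters and 209 sub-clusters. Sub-clusters of at least 20 cells were named from at least 3 markers of 17 sets at 50 CPM and 4-fold, and 3009 cells stayed unnamed (630, 1236 and 220 in treated mice, against 48, 574 and 301 in vehicle mice), among them 6 sub-clusters set aside for mixed markers after their leading genes were seen. Names may differ from the study's own.

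Counts were summed per mouse and class and tested for treatment with edgeR 4.0.16 (TMM, filterByExpr, robust quasi-likelihood, two-sided) with Benjamini-Hochberg adjustment over all genes of the class at 0.05. Between 60577 and 83458865 UMIs stood behind a class sum. DESeq2 1.42.0 was an alternative, and its missing adjusted p-values stayed missing. Differences between classes used the class by treatment term with the mouse as a block. Tests were checked on simulated counts. Each library is 1 mouse, and p-values measure the spread between these mice. Shares were compared after thinning to 1000 UMIs, and shares cover counting error only.

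Full statistics were given for members past the threshold and, in each class, for up to 6 members with the largest fold change among those whose groups did not overlap and whose average log2 CPM was at least 5. Of 4 further lists, up to 4 genes that passed or the 2 most abundant were eligible to be named. Members and lists were chosen with earlier results of these data known. Alternatives covered scaling, low-count and cell filters, doublets, the replicate number as a block and leaving out each mouse.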

Additional observations from a re-analysis of the deposited data

How the results depend on the processing

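In endothelial cells the number of members past the threshold was 0, against 1 with no filter on low counts (Mif, log2 fold change -1.08, adjusted p = 0.00829), 5 with DESeq2 (Gapdh, Ldha, Pkm, Mif and Pgk1), 1 with the replicate block (Adm, log2 fold change 1.31, adjusted p = 0.0447) and 0 to 1 with each mouse left out. In macrophages DESeq2 gave 1 (Epas1) and in tumour cells 2 (Kdm3a and Ldhb). For the difference between tumour cells and T and NK lymphocytes the number was 1 with no filter on low counts and 0 to 1 with each mouse left out. The cause was not tested. In the other classes and differences the number stayed at 0 under every alternative run, and differences were run only with other size factors, no filter and mice left out.

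With each mouse left out the median over the members ranged from -0.58 to -0.13 in B lymphocytes, -0.19 to 0.04 in T and NK lymphocytes, -0.31 to 0.0055 in endothelial cells, -0.08 to 0.34 in fibroblasts, 0.01 to 0.41 in macrophages, -0.47 to 0.45 in neutrophils and -0.28 to 0.17 in tumour cells, so that it crossed 0 in 5 of the 7 classes. Over all alternatives 417 values of single members kept their direction and side of the threshold and 11 passed it, most of these members having been chosen because their groups did not overlap. The labels give no pairing behind the replicate numbers. Same-numbered tumour sums correlated at -0.0124, -0.121 and 0.0126 in their deviations, and in no class were all 3 pairs over 0.1. Same-numbered neutrophil sums correlated at 0.0828, 0.218 and 0.148, each mouse best with its own number, which is a hint from the data and not from the design. Over all genes, endothelial calls numbered 89, and ran from 0 without treated 1 or 2 to 472 without vehicle 1 when mice were left out. They numbered 556 with no filter on low counts, 221 with DESeq2, 58 with the replicate block, 30 with doublets kept and 2 with treated mice 1 and 2 summed. Giving unnamed sub-clusters the class of their best marker score, an alternative chosen after seeing the data, changed no call of a member and gave 97 endothelial calls over all genes. Some sums are small, with 25 and 20 B lymphocytes in treated mice 1 and 2, and with 46 B lymphocytes, 42 T and NK lymphocytes and 46 endothelial cells in vehicle 1.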

Other observations

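Some cell classes were too sparse for a comparison in all mice but showed the members at levels worth following. In pericytes and smooth muscle cells, the contractile cells around vessels, Epas1 had 505.6, 566 and 628 CPM in treated mice 1 to 3 and 571 CPM in vehicle 2, the only vehicle mouse with at least 20 such cells. Gapdh there had 705.6, 772 and 705 CPM in treated mice and 1233 CPM in vehicle 2. In acinar cells, the enzyme-secreting cells of the pancreas, Car9 had 51.4 and 77.6 CPM in treated mice 1 and 2 and 44.2 CPM in vehicle 3. In plasma cells Ldha had 38.6 CPM in treated 3, against 88.4 and 94.5 CPM in vehicle mice 1 and 2. No test was made of these values.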
